A study of Drosophila melanogaster with 9 samples.

Results

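The genes described here are the long noncoding RNA genes measurable in ovaries of Drosophila melanogaster females. They were selected on measured values: a FlyBase symbol starting with lncRNA: or asRNA:, and a mean over the 9 libraries of at least 2 CPM (counts per 1000000 counts of the library). lncRNA:Hsromega, lncRNA:CR32368, lncRNA:CR44445 and asRNA:CR45600 were left out by name. This left 46 genes, 40 with lncRNA: symbols and 6 with asRNA: symbols, of 2262 such genes among the 17558 in the files; 1239 of the 2262 had at least 1 count. Just inside the limit were lncRNA:CR45433 and lncRNA:CR44756, with means of 2.22 and 2.14 CPM, and just outside it lncRNA:CR44111 and lncRNA:CR31781, with 1.99 and 1.98. Of the 46 genes, 40 reached a mean of 2 in every genotype, and all 46 passed the filter on low counts.

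The ovaries came from 3-day-old flies raised at 25 °C, and each of 3 genotypes has 3 libraries. The mutant carries moe[NES] over moe[G0415], the NES heterozygote carries moe[NES] over w[1118], and the null heterozygote carries moe[G0415] over w[1118]. Here w[1118] is an allele of w, a gene other than moe. moe encodes Moesin, a protein that links actin filaments to the cell membrane, and the labels call moe[G0415] a null allele. Every group therefore carries at least 1 altered moe allele, and no library of a fly with wild-type moe alleles alone was analysed here. Strain background that came with an allele cannot be told apart from the allele itself, and its part in the results was not tested. The labels give 10 females a genotype and do not say whether the replicates are separate crosses; p-values therefore measure only how these samples vary, which may be technical.

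Long noncoding RNAs are transcripts without a long open reading frame. Many are spliced and polyadenylated like messenger RNAs, some host small RNAs such as snoRNAs and miRNAs in their introns or exons, and an asRNA: symbol marks a gene that lies on the opposite strand of another gene. In the fly ovary the germline nurse cells and oocyte and the surrounding follicle cells all contribute RNA, and late follicle cells make very large amounts of eggshell messenger RNA. Most genes with a CR number have no assigned function, so roles are given below only for their coding neighbours.

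Library depth was 31.8 to 43.6 M counts (M is 1000000), so that 1 CPM stands for at least 31 counts. From here on, CPM values are scaled by the TMM method, which corrects for RNA composition. Moe averaged 409 ± 28.3 CPM in mutants, 694 ± 75 CPM in NES heterozygotes and 388 ± 44.7 CPM in null heterozygotes (SD, n = 3 each). Germline markers summed to between 3010 and 3840 CPM in all 9 libraries, while both spermatheca markers stayed under 1 CPM. Of 11 testis markers, 10 stayed under 1 CPM in every library, and the sum of that list came from CycB3. Muscle sheath markers summed to 108 to 196 CPM in mutants, 66.2 to 124 CPM in NES heterozygotes and 73.3 to 142 CPM in null heterozygotes. Hemocyte markers summed to 291 to 385, 188 to 286 and 224 to 395 CPM in the same genotypes. Of these 5 hemocyte markers, 2 stayed under 1 CPM in every library, so that sum rests on the other genes. Follicle cell markers summed to 459 to 534 CPM in mutants, 373 to 485 CPM in NES heterozygotes and 315 to 504 CPM in null heterozygotes. Fat body markers summed to at most 55.3 CPM in any library, and 6 of the 7 stayed under 1 CPM in every library. Gut markers summed to 10.8, 0 and 36.1 CPM in mutant replicates 1, 2 and 3, against at most 0.0843 CPM in NES heterozygotes and 1.05 CPM in null heterozygotes, and their part in the results was not tested. The libraries also differed widely in eggshell RNA. The 17 eggshell genes took 4.24, 2.72 and 3.76% of counts in mutants, 1.92, 3.99 and 2.94% in NES heterozygotes, and 0.663, 3.65 and 0.829% in null heterozygotes. Null heterozygote replicates 1 and 3 thus stood apart at the low end, and null heterozygote replicate 2 resembled the other genotypes. In whole ovaries, fewer cells of a type and less RNA per cell cannot be told apart.

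The 46 genes together took 0.141 to 0.189% of counts in mutants, 0.113 to 0.14% in NES heterozygotes and 0.0983 to 0.151% in null heterozygotes. A single gene, lncRNA:CR42862 on 3L, supplied 52.8 to 74.4% of those counts, depending on the library. Its levels were 1220, 940 and 1430 CPM in mutants, 677, 833 and 915 CPM in NES heterozygotes, and 512, 1070 and 509 CPM in null heterozygotes. All 3 mutant libraries were above all 3 NES heterozygote libraries, and the null heterozygotes overlapped both groups. The log2 fold changes were 0.78 ± 0.30 (SE) for mutant against null heterozygote (adjusted p = 0.259, edgeR quasi-likelihood test) and 0.57 ± 0.30 for mutant against NES heterozygote (adjusted p = 0.518, edgeR quasi-likelihood test). Without lncRNA:CR42862 the sum of the other genes lay between 418 and 498 CPM in all libraries.

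Per kilobase of exon, lncRNA:CR42862 stood at 164 CPM per kb (mean of 9 libraries), against a median of 5.38 CPM per kb over the 46 genes and 21.3 CPM per kb over the 8064 protein-coding genes tested. The next levels were much lower and close together: lncRNA:CR42491 at 36.7, lncRNA:CR45102 at 36.5, lncRNA:CR43685 at 35.3, lncRNA:CR43250 at 33.2 and lncRNA:CR40469 at 31.7 CPM per kb. The ranges of these 5 genes over the libraries overlap, so their order is not separated by the spread. lncRNA:CR30055 followed at 23.2, lncRNA:CR44833 at 19.6, lncRNA:CR42861 at 17.3 and lncRNA:CR44417 at 15.2 CPM per kb. lncRNA:CR42549 had 15 CPM per kb and was named for its rank among the 5 highest by CPM before division by length. At the other end, lncRNA:CR31044 averaged 0.682 CPM per kb.

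**Figure D1:**
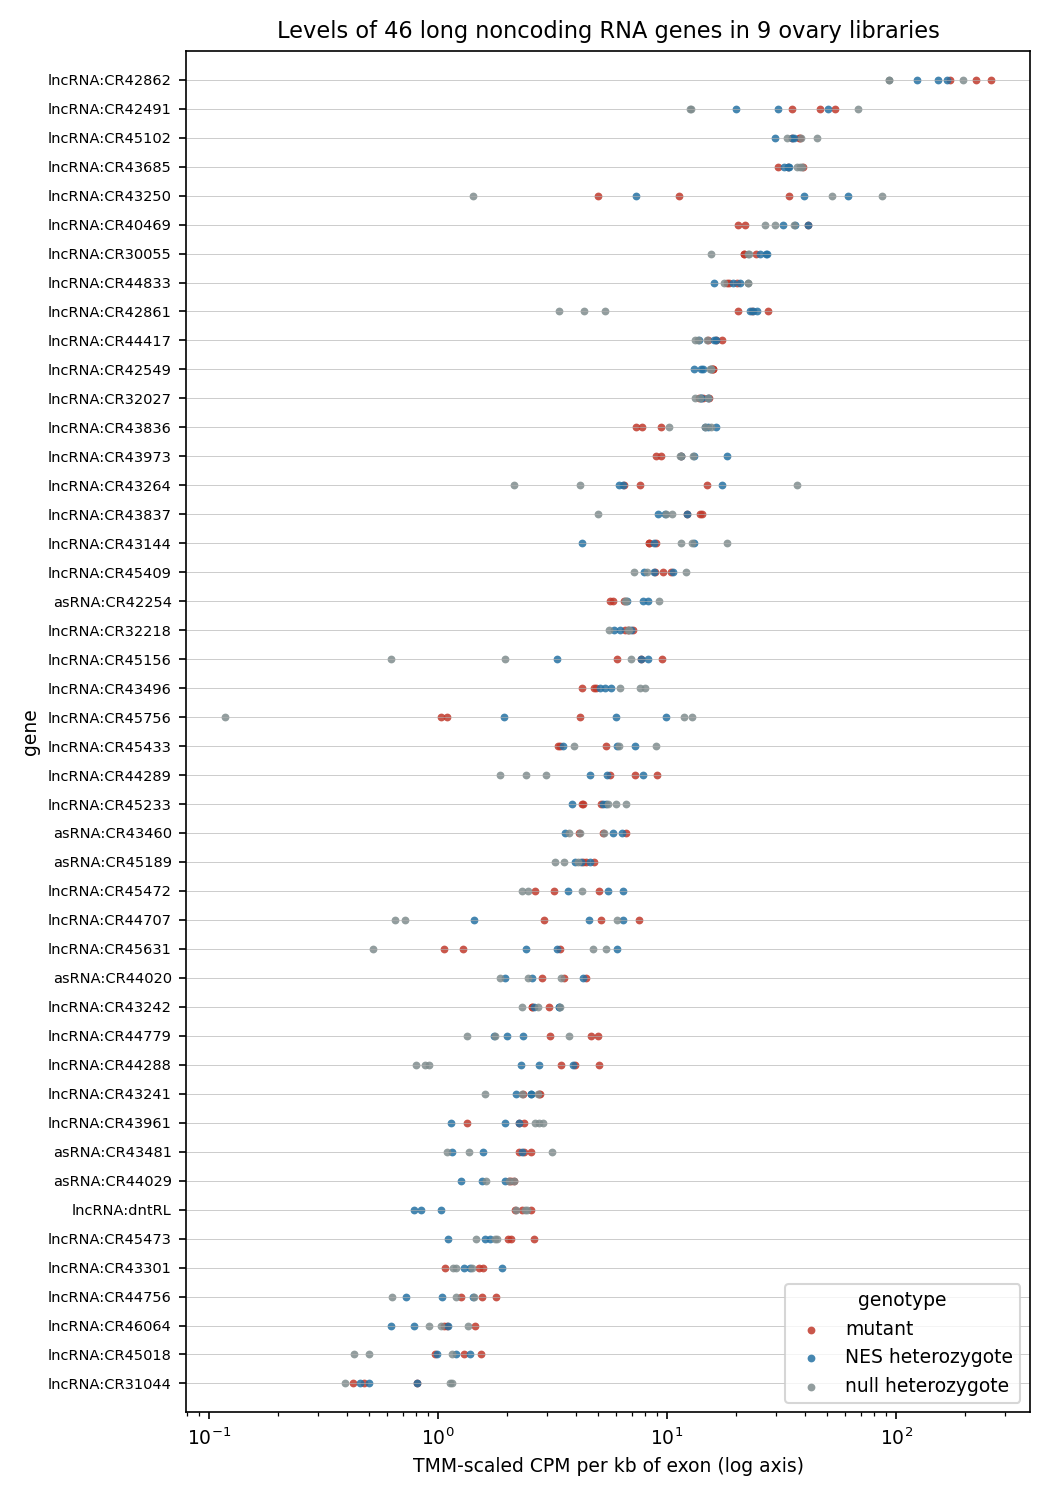
Level of each of the 46 long noncoding RNA genes in each of the 9 libraries, as TMM-scaled CPM per kb of merged exons on a log axis, with genes ordered by their mean and points coloured by genotype. lncRNA:CR42862 lies above all others, and the points of lncRNA:CR43250 and lncRNA:CR45756 are spread most widely.

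The genes are short and simple compared with coding genes. Their median exon length was 1130 bp against 2150 bp for protein-coding genes tested, and 22 of 46 (47.8%) have a single exon block against 9.47% of the coding genes. The X chromosome holds 14 of the 46 (30.4%) against 17.5% of coding genes tested, and arm 2L holds 3 (6.52%) against 17.7%. By position, 18 lie between protein-coding genes, 10 lie in introns, 10 share exonic bases with a coding gene on the opposite strand and 8 share exonic bases on the same strand. How reads on shared bases were assigned, or whether they were left out, is not given in the sources used here, nor is the strand setting of the counting. Levels per kb divide by the full exon length, shared bases included. Median levels were 4.6, 8.91, 3.59 and 10.8 CPM per kb in these 4 position classes, in the order just listed.

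Library-to-library variation differed greatly among the genes. In 18 of 46 the highest library was less than 2 times the lowest, and the steadiest were lncRNA:CR32027 (14.1 to 16.2 CPM) and lncRNA:CR42549 (25.9 to 31.3 CPM). In 6 the highest library was at least 10 times the lowest. The median SD of log2 levels within a genotype was 0.292 for the 46 genes and 0.17 for protein-coding genes tested. Median levels of these sets were 6.04 and 45.4 CPM. The sets were not matched for level, so the part of level in this difference was not tested.

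Mutant and null heterozygote share moe[G0415] and differ in whether the other X chromosome is labelled moe[NES] or w[1118]. In this comparison, 3 of 46 genes (6.52%) passed the edgeR quasi-likelihood test at an adjusted p under 0.05, all higher in the mutant. The share among all 8642 genes tested was 1.25%. The 3 genes were lncRNA:CR42861, lncRNA:CR44288 and lncRNA:CR44289. Fold changes of the 46 genes ran between -1.99 and 2.45 on the log2 scale with a median of 0.10, where the median of all genes tested was 0.00. The median size of the change regardless of sign was 0.41 for the 46 genes and 0.19 for all genes, which were not matched for level.

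Mutant and NES heterozygote share moe[NES] and differ in whether the other X chromosome is labelled moe[G0415] or w[1118]. They gave 2 calls among the 46 (4.35%), lncRNA:dntRL higher and lncRNA:CR43836 lower in the mutant, against 0.972% of all genes. The range of log2 fold changes was -1.51 to 1.41 and the median 0.08, against 0.00 for all genes. Between NES heterozygote and null heterozygote, 3 of 46 (6.52%) passed, against 0.833% of all genes. lncRNA:CR42861 and lncRNA:CR44288 were higher and lncRNA:dntRL lower in the NES heterozygote, and the median over the 46 genes was 0.03 against 0.00. The 3 comparisons share libraries, so their calls are not independent. These shares rest on 2 or 3 genes, and in the comparisons with the mutant their order depends on the libraries. For mutant against null heterozygote, the share of the 46 genes was above that of all genes in 17 of 18 other fits. For NES heterozygote against null heterozygote it was above in 18 of 18. These fits reuse the same libraries and are not independent. Without null heterozygote replicate 2, 32.6% of the 46 genes and 41.6% of all genes were called for mutant against null heterozygote. For mutant against NES heterozygote, the share of the 46 genes was not above that of all genes in 10 of 18 other fits, all with edgeR's quasi-likelihood test and 0 of these genes called. The fit with a filter at a mean of 5 CPM, among these 10, tested only 27 of the 46 genes. lncRNA:CR44288 and lncRNA:dntRL, 2 of the 5 genes called in any comparison, are also among the 6 genes with a mean under 2 CPM in a genotype, and entered the selection through the groups where they are high. The shares are therefore a description only, and 3 of the 4 genes left out by name also passed the test in at least 1 comparison.

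**Figure D2:**
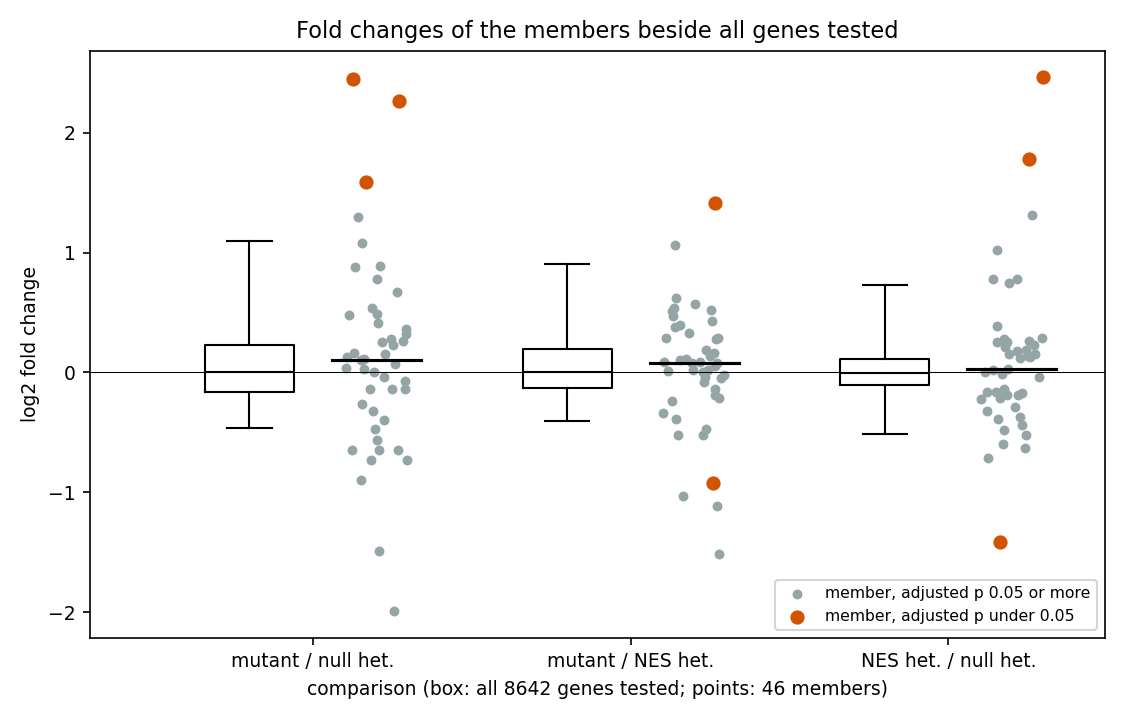
Log2 fold changes in the 3 comparisons. Boxes show all 8642 genes tested (quartiles, with whiskers at percentiles 5 and 95), points the 46 long noncoding RNA genes with their median as a bar, and orange points those with an adjusted p under 0.05. lncRNA:CR42861 is the highest orange point in the first comparison (2.45) and in the last (2.46).

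lncRNA:CR42861 (FBgn0262108) showed the clearest difference. It is a 549 bp gene on the X chromosome, at 13744928 to 13745476 on the plus strand (BDGP6.54), with 100 bp between it and Pdcd4 on the opposite strand. Its levels were 15.1, 12.9 and 11.2 CPM in mutants, 12.7, 13.6 and 13 CPM in NES heterozygotes, and 1.85, 2.95 and 2.38 CPM in null heterozygotes. Every library with moe[NES] was above every null heterozygote library, and mutants and NES heterozygotes overlapped. The mutant level was 5.47-fold that of the null heterozygote (log2 2.45 ± 0.20, adjusted p = 0.00126) and the NES heterozygote level 5.49-fold that of the null heterozygote (log2 2.46 ± 0.20, adjusted p = 0.000894), both by edgeR's quasi-likelihood test. Mutant against NES heterozygote gave a log2 fold change of 0.00 ± 0.18. Pdcd4, whose vertebrate counterpart inhibits translation initiation, averaged 432 ± 29.9 CPM in mutants, 420 ± 33.4 CPM in NES heterozygotes and 423 ± 28.9 CPM in null heterozygotes, with log2 fold changes between -0.01 and 0.04.

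lncRNA:CR44289 and lncRNA:CR44288 are neighbours on 3R with 329 bp between them on opposite strands. lncRNA:CR44289 (FBgn0265316, 27535831 to 27537903, minus strand) had 15, 11.7 and 18.7 CPM in mutants, 11.3, 9.57 and 16.3 CPM in NES heterozygotes, and 3.88, 6.16 and 5.01 CPM in null heterozygotes. lncRNA:CR44288 (FBgn0265315, 27538233 to 27539159, plus strand) had 3.18, 3.67 and 4.67 CPM in mutants, 2.56, 2.13 and 3.61 CPM in NES heterozygotes, and 0.844, 0.746 and 0.81 CPM in null heterozygotes. For both genes the null heterozygote libraries lay below all 6 others, and mutants overlapped NES heterozygotes.

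The log2 fold change of lncRNA:CR44288 was 2.26 ± 0.28 for mutant against null heterozygote (edgeR quasi-likelihood adjusted p = 0.00767) and 1.78 ± 0.27 for NES heterozygote against null heterozygote (edgeR quasi-likelihood adjusted p = 0.0242). lncRNA:CR44289 gave 1.59 ± 0.27 for mutant against null heterozygote (edgeR quasi-likelihood adjusted p = 0.0291), and 1.31 ± 0.27 for NES heterozygote against null heterozygote, which missed the threshold (edgeR quasi-likelihood adjusted p = 0.0828). With null heterozygote replicate 2 as the only library of its genotype, neither gene was called for mutant against null heterozygote.

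The nearest coding gene to lncRNA:CR44289, CG12885, averaged 0.107 CPM in mutants, 0.0971 CPM in NES heterozygotes and 0.0723 CPM in null heterozygotes and was not tested. Beyond lncRNA:CR44288, with 3337 bp between them and on the same strand, lies Gr98b, which encodes a gustatory receptor. Gr98b had 57 counts in the 3 mutant libraries together, 0 in the NES heterozygotes and 1 in the null heterozygotes. With a floor of 3 counts over the group, Gr98b was at least 16.1-fold higher in mutants than in NES heterozygotes (edgeR quasi-likelihood adjusted p = 0.0478). Against the null heterozygotes the ratio was 48.8 with a 95% counting interval of 8.42 to 1960 (edgeR quasi-likelihood adjusted p = 0.0522). Floor and interval cover counting error only.

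lncRNA:CR43836 (FBgn0264384) spans 8972908 to 9048991 on the minus strand of the X chromosome, 74.6 kb from Moe itself. It had 11.8, 15.1 and 12.5 CPM in mutants, 24.4, 23.7 and 26.3 CPM in NES heterozygotes, and 23.5, 16.5 and 25.0 CPM in null heterozygotes. The mutant libraries were below all 6 heterozygote libraries. The log2 fold change was -0.92 ± 0.16 against the NES heterozygote (edgeR quasi-likelihood adjusted p = 0.0478) and -0.73 ± 0.16 against the null heterozygote, which missed the threshold (edgeR quasi-likelihood adjusted p = 0.0919).

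The 3′ end of lncRNA:CR43836 shares 473 exonic bases, 29.3% of its exon length, with the coding gene CG10962 on the same strand. CG10962 had 0.0701, 0.185 and 0.666 CPM in mutants, 9.66, 5.6 and 8.16 CPM in NES heterozygotes, and 9.7, 5.48 and 8.33 CPM in null heterozygotes. Its log2 fold changes were -4.66 ± 0.64 against either heterozygote (edgeR quasi-likelihood adjusted p = 0.016 for the NES heterozygote and 0.0135 for the null heterozygote). The part of the shared bases in the level of lncRNA:CR43836 was not tested. Nost, on the opposite strand and overlapping the same span, averaged 192 ± 16.7 CPM in mutants, 227 ± 32.2 CPM in NES heterozygotes and 224 ± 53.4 CPM in null heterozygotes, and neither it nor rdgA, a diacylglycerol kinase gene, was called in any comparison.

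lncRNA:dntRL (FBgn0267585), on 2R at 4621118 to 4622481 on the minus strand, differed from the other called genes in its order of genotypes. Its levels were 2.95, 3.49 and 3.18 CPM in mutants, 1.15, 1.07 and 1.4 CPM in NES heterozygotes, and 3.35, 3.28 and 2.99 CPM in null heterozygotes. All NES heterozygote libraries lay below the 6 others, and mutants overlapped null heterozygotes. The log2 fold change was 1.41 ± 0.20 for mutant against NES heterozygote (edgeR quasi-likelihood adjusted p = 0.0218) and -1.41 ± 0.20 for NES heterozygote against null heterozygote (edgeR quasi-likelihood adjusted p = 0.0177). Mutant against null heterozygote was 0.00 ± 0.20. Its nearest coding gene, CG17486, averaged 105 ± 2.35 CPM in mutants, 120 ± 5.6 CPM in NES heterozygotes and 125 ± 4.72 CPM in null heterozygotes and was not called in any comparison.

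**Figure D3:**
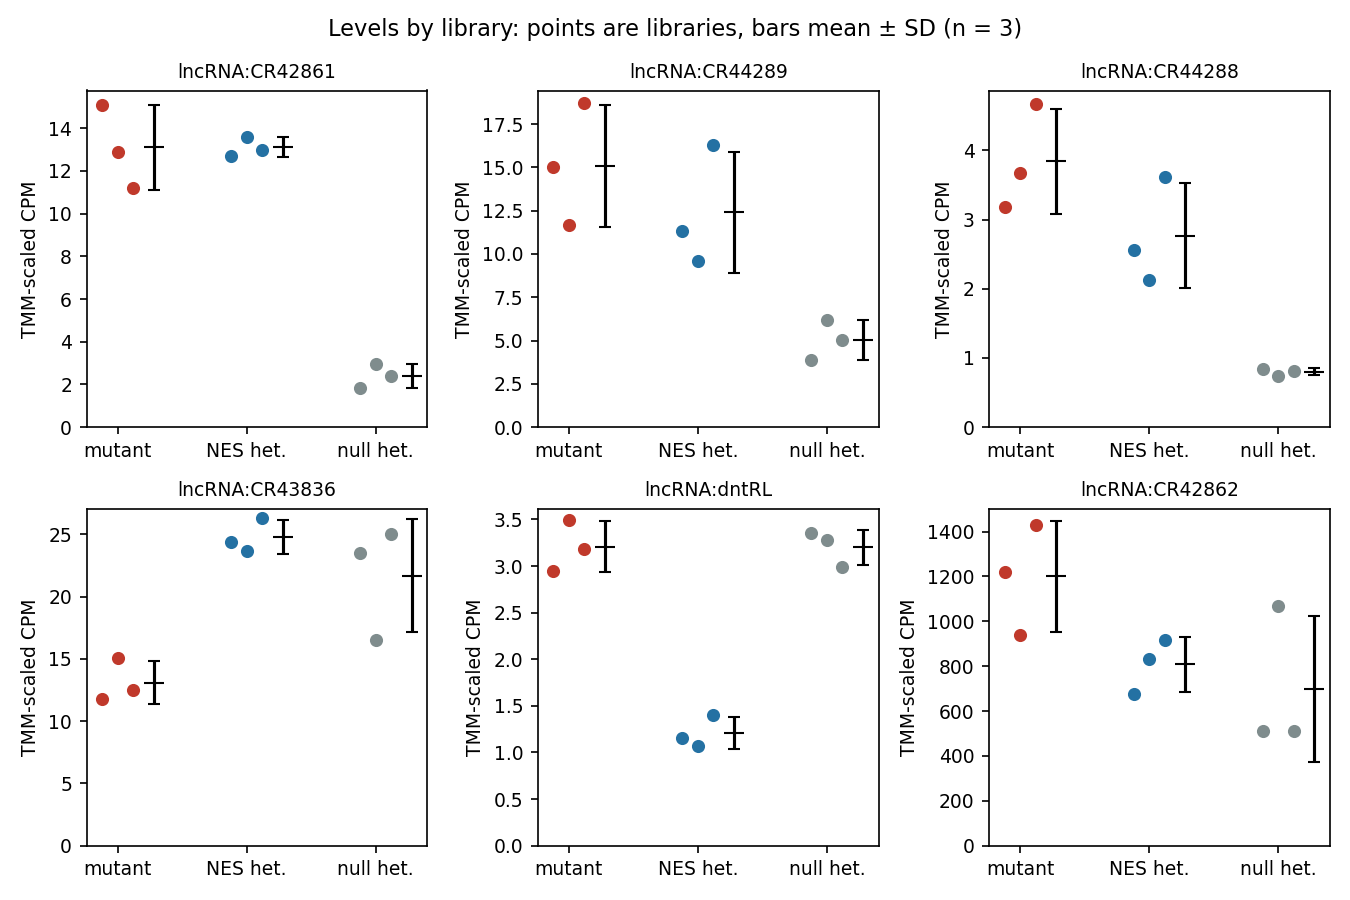
TMM-scaled CPM of the 5 long noncoding RNA genes called in at least 1 comparison and of lncRNA:CR42862, by library, with mutants left, NES heterozygotes in the middle and null heterozygotes right; bars are means ± SD (n = 3). lncRNA:CR42861, lncRNA:CR44289 and lncRNA:CR44288 are low in null heterozygotes, lncRNA:CR43836 in mutants and lncRNA:dntRL in NES heterozygotes.

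The calls differed in how they held across 18 other ways of fitting the counts, including each library left out in turn. lncRNA:CR42861 was called in 18 of 18 for both of its comparisons, its log2 fold change stayed between 2.14 and 2.63, and its highest adjusted p was 0.0181 for the mutant and 0.0221 for the NES heterozygote (edgeR quasi-likelihood or DESeq2). lncRNA:CR44288 was called in 15 of 17 fits for mutant against null heterozygote, losing the call without null heterozygote replicate 3 (adjusted p = 0.0574, edgeR quasi-likelihood) and with that genotype reduced to its second library (adjusted p = 0.183, edgeR quasi-likelihood), and in 8 of 17 for NES heterozygote against null heterozygote. lncRNA:CR44289 was called in 10 of 18, and lost the call without mutant replicate 1 or 3, NES heterozygote replicate 1, or null heterozygote replicate 1 or 3. lncRNA:CR43836 was called in 7 of 18, and lncRNA:dntRL in 8 of 17 for mutant against NES heterozygote and in 6 of 17 for NES heterozygote against null heterozygote. Both genes lost every call when any single library other than null heterozygote replicate 2 was left out. Adjusted p was then up to 0.228 for lncRNA:CR43836 (edgeR quasi-likelihood). For lncRNA:dntRL it was up to 0.122 for mutant against NES heterozygote and 0.0945 for NES heterozygote against null heterozygote (edgeR quasi-likelihood). In mutant against NES heterozygote, log2 fold changes stayed between -1.03 and -0.85 for lncRNA:CR43836 and between 1.33 and 1.52 for lncRNA:dntRL. In mutant against null heterozygote, that of lncRNA:CR43836 ranged more widely, between -0.89 and -0.35. It was -0.38 there with the eggshell share as a covariate. None of these genes changed direction in any of the fits.

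A looser criterion is that the 3 libraries of a group do not overlap those of the other. For mutant against null heterozygote, 14 of 46 genes (30.4%) met it, 8 higher and 6 lower in the mutant, against 18.4% of all genes tested. For mutant against NES heterozygote it was 12 (26.1%) against 24.9%, a share close to that of all genes. For NES heterozygote against null heterozygote it was 10 (21.7%) against 13.3%. Among genes that met this criterion without being called, lncRNA:CR43144, with 485 bp between it and the ubiquitin ligase gene Cul2, had 4.75, 5.07 and 4.76 CPM in mutants and 7.3, 10.4 and 6.56 CPM in null heterozygotes (log2 -0.73 ± 0.36, edgeR quasi-likelihood adjusted p = 0.324).

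lncRNA:CR43496 was lowest in mutants, with 4.23, 3.75 and 4.32 CPM, then 5.0, 4.5 and 4.72 CPM in NES heterozygotes, and 7.07, 5.52 and 6.74 CPM in null heterozygotes. No pair of genotypes overlapped for this gene, and its largest log2 fold change, -0.65 ± 0.16 for mutant against null heterozygote, had an adjusted p of 0.11 in edgeR's quasi-likelihood test. lncRNA:CR44779, a 6518 bp gene that shares 94 exonic bases with CG3655 on the opposite strand, had 30.2, 20.1 and 32.4 CPM in mutants, 11.4, 15.3 and 13.1 CPM in NES heterozygotes, and 8.7, 24.4 and 11.6 CPM in null heterozygotes. Its mutant libraries were above all NES heterozygote libraries (log2 1.06 ± 0.36, edgeR quasi-likelihood adjusted p = 0.309), and the null heterozygotes overlapped the mutants. In the same comparison lncRNA:CR45473 was 0.62 ± 0.24 higher, and lncRNA:CR43973 and asRNA:CR42254 were lower by -0.52 ± 0.20 and -0.34 ± 0.17, on the log2 scale and none of them called.

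Several of the widest ranges followed the eggshell share of the libraries. A fit with the log2 eggshell share as a covariate within genotypes, added after the data were seen, called 19 of 46 genes (41.3%) by edgeR's quasi-likelihood test, 11 rising and 8 falling with the share, against 55.8% of all genes tested. Without null heterozygote replicate 2, 12 of 46 genes (26.1%) were called, against 26.2% of all genes.

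The steepest rise per doubling of the eggshell share was that of lncRNA:CR43264, with a log2 slope of 1.55 ± 0.16 (edgeR quasi-likelihood adjusted p = 1.15e-05). Its levels were 4.77, 2.06 and 2.42 CPM in mutants, 1.97, 5.51 and 2.04 CPM in NES heterozygotes, and 0.685, 11.7 and 1.32 CPM in null heterozygotes. lncRNA:CR44707 had a slope of 1.47 ± 0.16, and the nearest coding gene, phtm, which encodes a cytochrome P450 of ecdysone synthesis, had 0.93 ± 0.13. lncRNA:CR45156, in an intron of Cip4, rose with a slope of 1.12 ± 0.15. lncRNA:CR42491 rose with a smaller error, 1.07 ± 0.05 (edgeR quasi-likelihood adjusted p = 9.35e-08), while the ribosomal protein gene RpL22, with which it shares 377 exonic bases on the same strand, had a slope of 0.16 ± 0.03.

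The steepest falls were those of a pair of neighbours beside Ilp8, which encodes an insulin-like peptide known for delaying metamorphosis. lncRNA:CR45756 and lncRNA:CR43250 lie on the same strand of 3L with 510 bp between them, and lncRNA:CR45756 shares 26 exonic bases with Ilp8. lncRNA:CR43250 had 1.71, 11.6 and 3.85 CPM in mutants, 21.0, 2.49 and 13.5 CPM in NES heterozygotes, and 17.9, 0.487 and 29.5 CPM in null heterozygotes. Its highest library was 60.6-fold above its lowest, and the lowest was null heterozygote replicate 2.

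lncRNA:CR45756 had 0.608, 2.3 and 0.568 CPM in mutants, 5.48, 1.07 and 3.32 CPM in NES heterozygotes, and 6.59, 0.0649 and 7.12 CPM in null heterozygotes, with the same library lowest. The log2 slopes were -2.55 ± 0.28 for lncRNA:CR45756 and -2.52 ± 0.35 for lncRNA:CR43250, and Ilp8 fell with a slope of -1.35 ± 0.15. Without null heterozygote replicate 2 the slopes were -2.22 ± 0.46 and -2.54 ± 0.63 for the same noncoding genes. Their fold changes between genotypes, -1.99 ± 1.19 and -1.49 ± 1.20 for mutant against null heterozygote, were not called. lncRNA:CR45631 fell with a slope of -1.46 ± 0.20, and lncRNA:CR31044 with -0.71 ± 0.13.

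**Figure D4:**
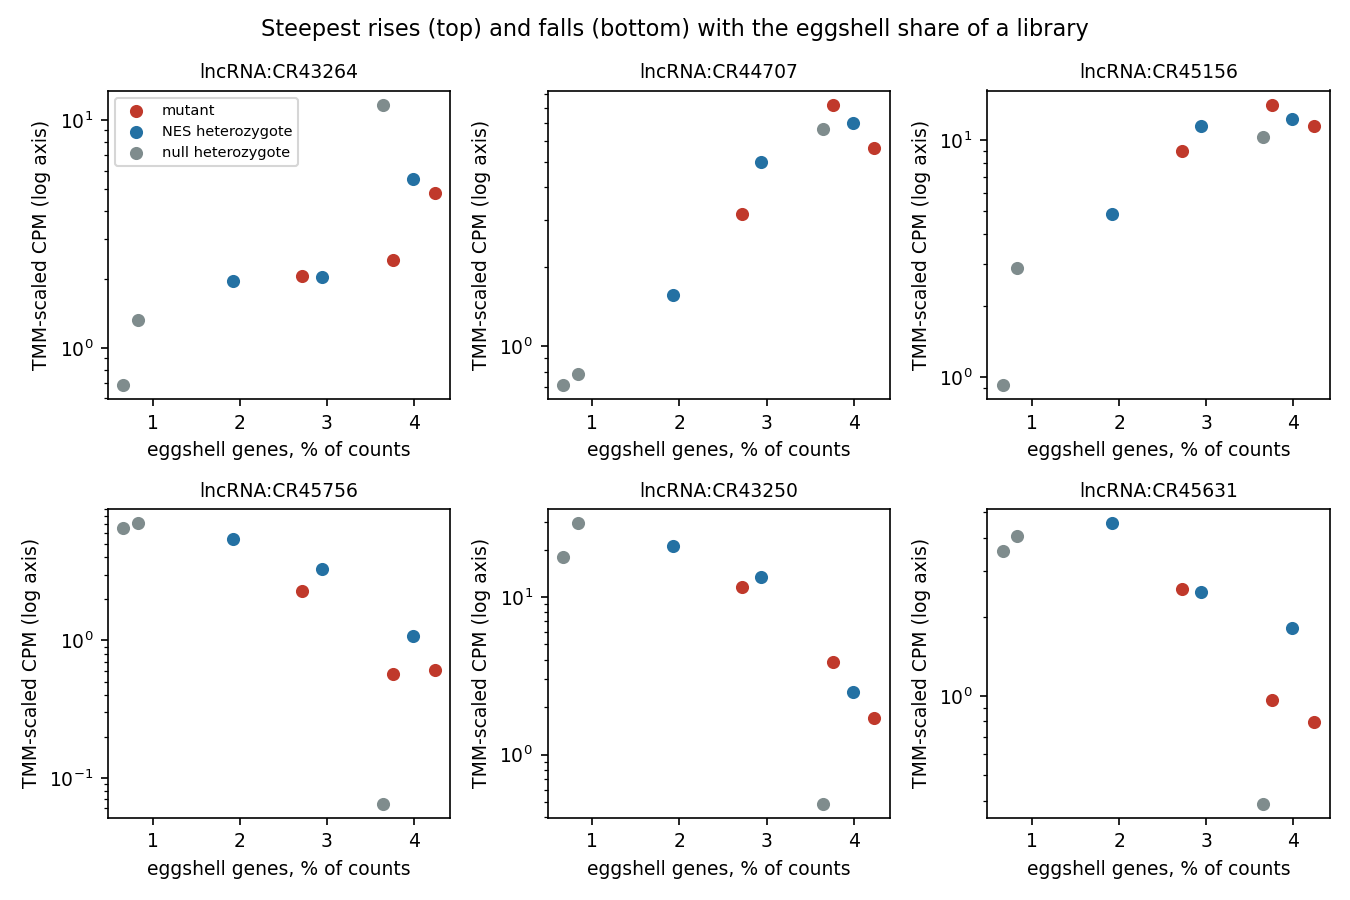
Level of the 3 genes with the steepest rise (top row) and the 3 with the steepest fall (bottom row) against the share of counts from 17 eggshell genes, 1 point a library, with the level on a log axis. Null heterozygote replicates 1 and 3 lie at the left of each panel (0.663 and 0.829%) and null heterozygote replicate 2 at 3.65%.

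Among the genes called between genotypes, the eggshell slope was 0.20 ± 0.09 for lncRNA:CR42861 and 0.20 ± 0.13 for lncRNA:CR44289. It was -0.08 ± 0.17 for lncRNA:CR44288, -0.01 ± 0.12 for lncRNA:dntRL and -0.22 ± 0.06 for lncRNA:CR43836. The median size of the slope regardless of sign was 0.22 for the 46 genes and 0.16 for all genes tested, again without matching for level. Of the 5 called genes, the slope of lncRNA:CR43836 alone passed the test (edgeR quasi-likelihood adjusted p = 0.0058). lncRNA:CR42862 had a slope of 0.46 ± 0.06 (edgeR quasi-likelihood adjusted p = 7.28e-05). Without null heterozygote replicate 2 neither slope passed. It was then -0.14 ± 0.12 for lncRNA:CR43836 and 0.4 ± 0.15 for lncRNA:CR42862 (edgeR quasi-likelihood adjusted p = 0.45 and 0.0816).

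The coding gene that each noncoding gene overlaps, or else the nearest, was tested for 41 of the 46. In 31 of these the coding gene had the higher level per kb, and in 10 the noncoding gene had. lncRNA:CR42862 exceeded CG33229, with which it shares 246 exonic bases, at 164 against 48.1 CPM per kb. asRNA:CR44020, which shares 162 exonic bases with the opposite strand of osk, the determinant of posterior pole plasm, stood at 3.05 against 584 CPM per kb. lncRNA:CR44833 and ovo, a germline transcription factor gene that it overlaps by 25 exonic bases on the opposite strand, stood at 19.6 and 58.9 CPM per kb.

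Other neighbours differed between genotypes where the noncoding gene was not called. lncRNA:CR43961 lies in an intron of Ten-a, a teneurin gene, on the opposite strand. Ten-a averaged 24.2 ± 3.14 CPM in mutants, 15.8 ± 4.21 CPM in NES heterozygotes and 7.29 ± 1.03 CPM in null heterozygotes (mutant against null heterozygote, log2 1.73 ± 0.21, edgeR quasi-likelihood adjusted p = 0.00767). lncRNA:CR43961 had 3.76, 6.37 and 6.66 CPM in mutants, 3.2, 6.34 and 5.51 CPM in NES heterozygotes, and 8.09, 7.72 and 7.47 CPM in null heterozygotes, so both other genotypes lay below the null heterozygote without overlap (log2 -0.47 ± 0.29 for mutant against null heterozygote, edgeR quasi-likelihood adjusted p = 0.387).

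asRNA:CR43481 shares 1316 exonic bases with the opposite strand of the small heat shock gene Hsp67Ba and lies 732 bp from Hsp26, another small heat shock gene. It had 6.55, 7.35 and 6.89 CPM in mutants, 3.34, 6.72 and 4.58 CPM in NES heterozygotes, and 3.16, 9.08 and 3.95 CPM in null heterozygotes, and was not called. Hsp67Ba averaged 0.909 CPM in mutants, 0.752 CPM in NES heterozygotes and 0.956 CPM in null heterozygotes and was not called either. Hsp26 averaged 680 ± 30.1 CPM in mutants, 1530 ± 264 CPM in NES heterozygotes and 1190 ± 81.6 CPM in null heterozygotes (log2 -1.17 against the NES heterozygote, edgeR quasi-likelihood adjusted p = 0.00456, and -0.80 against the null heterozygote, adjusted p = 0.0198).

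**Figure D5:**
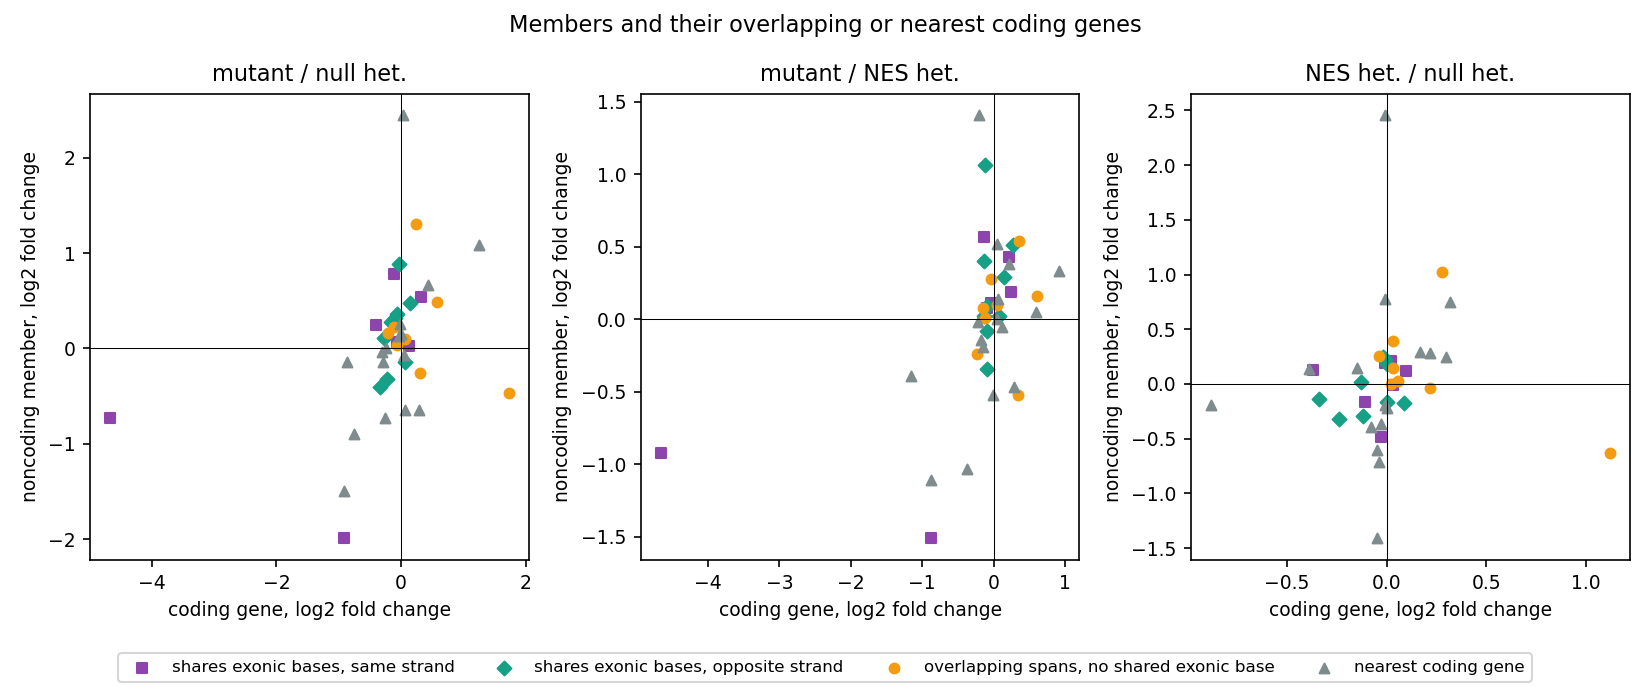
Log2 fold change of the noncoding gene (vertical) against that of its overlapping or nearest coding gene (horizontal) for 40 pairs in each comparison, with the marker giving the relation in position; Gr98b, with fewer than 3 counts in a genotype, is left out. CG10962 with lncRNA:CR43836 lies far left in the panels of the mutant (-4.66), and lncRNA:CR42861 lies high in the first panel, where its coding neighbour Pdcd4 is near 0 (2.45 against 0.03).

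Genes that act on noncoding RNA were described as 6 lists: the RNA exosome, which trims and degrades nuclear RNA, the Integrator complex, which cleaves nascent transcripts, core proteins of snoRNPs, nonsense-mediated decay, dosage compensation and the machinery that transcribes piRNA clusters. Not every listed gene was tested: 11 of 12 were for the exosome, 13 of 17 for Integrator and 5 of 9 for snoRNPs. For nonsense-mediated decay it was 9 of 11, for dosage compensation 7 of 8 and for piRNA cluster transcription 7 of 9. For the exosome, Integrator, snoRNPs and nonsense-mediated decay, the untested genes are symbols not found among the genes counted, not genes with low counts. Dosage compensation and piRNA cluster transcription each had 8 symbols found. Of 52 listed genes tested, edgeR's quasi-likelihood test called 0 in each comparison. At an unadjusted p under 0.05 there were 10 for mutant against null heterozygote, 5 for mutant against NES heterozygote and 2 for NES heterozygote against null heterozygote, which is 19.2, 9.62 and 3.85% of the lists against 17, 11.3 and 9.55% of all genes. DESeq2 called mago and Nop60B in the first comparison, mago in the second and moon in the last; over all genes, DESeq2 called 6.39, 3.99 and 3.95%.

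mago, a core member of the exon junction complex, averaged 89.1 ± 7.12 CPM in mutants, 74.6 ± 1.47 CPM in NES heterozygotes and 74.1 ± 3.78 CPM in null heterozygotes. moon, which drives transcription of piRNA clusters, averaged 18.6 ± 3.76 CPM in mutants, 15.6 ± 2.06 CPM in NES heterozygotes and 28.2 ± 6.4 CPM in null heterozygotes. Nop60B, the snoRNP pseudouridine synthase, averaged 734 ± 13.8 CPM in mutants, 762 ± 7.75 CPM in NES heterozygotes and 805 ± 30.4 CPM in null heterozygotes. For mutant against null heterozygote, list medians of the log2 fold change were -0.19 for Integrator, -0.12 for dosage compensation, -0.10 for piRNA cluster transcription, 0.03 for the exosome, 0.08 for snoRNPs and 0.09 for nonsense-mediated decay, against 0.00 for all genes.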

How the data were processed

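RNA of fly ovaries was made into libraries with a stranded mRNA kit, which selects polyadenylated RNA, so transcripts without a poly(A) tail are underrepresented. The submitters' processing notes list HISAT2 2.0.4 and HTSeq beside Trimmomatic 0.36, SAMtools 0.1.19 and FastQC, with the build BDGP6, and no source used here gives the annotation release or the strand setting. The authors deposited raw counts per gene, 1 file a library, with no normalization. Symbols, positions and exon lengths were taken from the Ensembl gene set for BDGP6.54, which matched 17252 gene identifiers; the 306 others, with 5% of counts, are not named.

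Counts were analysed with edgeR 4.0.16 in R 4.3.3. filterByExpr (minimum count 10, minimum total 15) kept 8642 genes, and libraries were scaled by TMM. All 9 libraries entered 1 quasi-likelihood fit with a coefficient for each genotype. Benjamini-Hochberg adjustment ran over all genes tested, at a threshold of 0.05. CPM are TMM-scaled unless said otherwise, a level per kb divides by merged exon length, ± after a mean is the SD and ± after a log2 value the SE. The biological coefficient of variation was 20.1% (common dispersion 0.0403). The procedure was tested on simulated data. DESeq2 1.42.0 was an alternative.

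The genes and lists were chosen with earlier results of these data known. Genes were named when called in a comparison, among the 10 highest per kb or the 5 highest by CPM, carrying a symbol other than a CR or CG number, among the 3 highest or lowest fold changes of groups without overlap, or next to the membership limit. Those named for their eggshell slope, their variation or their coding neighbour were chosen after their values were seen.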

Additional observations from a re-analysis of the deposited data

How the results depend on the processing

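Settings were compared by how many of the 46 genes were called. A filter or membership at a mean of 5 CPM left 27 genes. With transposons set aside, 26 genes shared no exonic base with another gene, coding or noncoding, while 28 shared none with a coding gene. Putting back omitted genes gave 49. lncRNA:dntRL and lncRNA:CR44288, with means of 2.55 and 2.45 CPM of raw counts, were not among the 27. For mutant against null heterozygote, 3 were called as reported; DESeq2 called 5 (552 of all genes, against 108 as reported), the eggshell covariate gave 12 (736 genes), and the null heterozygote reduced to its second library gave 1 (19 genes). For mutant against NES heterozygote, 2 were called as reported (84 genes); the eggshell covariate gave 6 (1109 genes), library size alone 1, a filter at a mean of 5 CPM 0 (27 genes), membership at a mean of 5 gave 1, putting back the 3 omitted genes that reach a mean of 2 gave 4, and genes sharing no exonic base 1. For NES heterozygote against null heterozygote, 3 were called as reported (72 genes); the eggshell covariate gave 17 (2430 genes), a mean of 5 CPM 1 (33 genes), fitting only the groups compared 1 (24 genes), and membership at a mean of 5 gave 1. DESeq2 called 345 genes for mutant against NES heterozygote and 341 for NES heterozygote against null heterozygote. With a replicate block, 2, 0 and 1 of the 46 and 59, 34 and 38 of all genes were called in the 3 comparisons; same-numbered libraries correlated between -0.428 and 0.451, so the numbers were not taken as pairs. Leaving out 1 library gave 1 to 15, 0 to 3 and 1 to 8 called in the 3 comparisons, and 12 to 21 for the eggshell share; the highest genotype counts came without null heterozygote replicate 2, when 3679, 259 and 741 of all genes were called. The mutant against NES heterozygote count was 0 without each other library in turn. Medians of the 46 genes varied with the genes and libraries taken: 0.02 to 0.13 with 1 library left out and 0.02 for genes sharing no exonic base (mutant against null heterozygote, 0.10 as reported), and 0.00 to 0.13, 0.14 for genes sharing no exonic base and -0.13 with the null heterozygote's second library alone (NES heterozygote against null heterozygote, 0.03 as reported). The eggshell covariate and the reduction to the second library were added after the data were seen. The cause of these changes was not tested. No call reversed its direction. Depth gives at least 31 counts for 1 CPM, so that values under 1 CPM, such as those of lncRNA:CR44288 in null heterozygotes, rest on few counts.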

Other observations

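Below the membership limit, 1 further long noncoding RNA gene passed the test without being left out by name. lncRNA:CR44472 (mean of 0.316 CPM of raw counts) had 70 counts in mutants, 38 in NES heterozygotes and 1 in null heterozygotes. The ratio to the null heterozygote was 60 for the mutant, with a 95% counting interval of 10.4 to 2400, and 38.3 for the NES heterozygote, with 6.47 to 1550 (edgeR quasi-likelihood adjusted p = 0.0135 and 0.0299).

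Several named noncoding genes of the fly lay below the membership limit. lncRNA:roX2, an RNA of the male dosage compensation complex, had 1 count in all libraries together. Its partner lncRNA:roX1 had 0.396 to 0.608 CPM in mutants, 0.0562 to 0.296 CPM in NES heterozygotes and 0.132 to 0.405 CPM in null heterozygotes. It was not called for mutant against NES heterozygote (log2 1.66 ± 0.62, edgeR quasi-likelihood adjusted p = 0.361). lncRNA:flam, the piRNA cluster of ovarian follicle cells, had 83 counts in mutants, 73 in NES heterozygotes and 183 in null heterozygotes, over 3 libraries each. Scaled for depth, this was 0.514, 0.687 and 0.864 CPM in mutants and 0.59, 0.355 and 1.17 CPM in NES heterozygotes. Null heterozygotes had 1.61, 1.01 and 2.3 CPM, and lncRNA:flam was not called in any comparison. lncRNA:bxd had 0 counts in every library.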
